A study of Mus musculus with 2 samples.

Results

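The immediate-early genes *Fos*, *Fosb*, *Jun*, *Junb*, *Egr1*, *Egr3*, *Nr4a1*, *Ier2*, *Atf3* and *Dusp1* were followed among 12393 genes measured on 2 Affymetrix MOE430A arrays of the mouse cochlea at embryonic day (E) 18.5. All probe sets that the array annotation pairs with one of these symbols alone were taken. This gave 11 probe sets of 22626, 2 for *Jun* and 1 for every other gene. The genes were chosen on measured values, since earlier results of the same 2 arrays had already placed *Fos*, *Egr1* and *Nr4a1* among the largest differences. Their differences are therefore given as a description, with no test. The study asked which cochlear genes depend on insulin-like growth factor I (IGF-I), whose gene *Igf1* was disrupted by targeting in the mutant. Embryos came from matings of heterozygotes on a C57BL/6J background, on which the null animals die at birth, and each cochlea was dissected within its otic capsule and without the vestibule. The labels give 8 cochleae for each array, while the methods describe several independent RNA pools of each genotype, each pool from 2 embryos. The title and the source name of each array contradict each other. The array titled +/+, called the plus array here, has *Igf1*-/- as its source name, and the array titled −/−, called the minus array, has *Igf1*+/+. The labels thus leave the genotype of both arrays unsettled. Each difference is the level on the minus array less that on the plus array, on the log2 scale, after subtraction of the median difference over all probe sets, 0.022, and is negative where a gene was lower on the minus array.

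Immediate-early genes are switched on within minutes of a stimulus, without new protein synthesis, and most of their mRNAs are short-lived. Growth factors act on them through the RAS-ERK cascade, which activates ternary complex factors at serum response elements, and calcium or cyclic AMP acts through the factor CREB. FOS and JUN proteins pair through leucine zippers to form the AP-1 transcription factor, the EGR proteins bind DNA through zinc fingers and NR4A1 is an orphan nuclear receptor. The same genes also respond to wounding, stress and tissue dissociation, and thus to the way in which an animal or a tissue is handled before RNA is isolated. *Dusp1* encodes no transcription factor but a phosphatase that switches off MAP kinases, and *Ier2* encodes a small nuclear protein.

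The values used here hold 1 array per title, without separate values for the pools that the methods describe. With no replicate among them they carry no error between samples, no test was made, and precision is limited by the number of arrays. The only repeated measurement was that of genes read by several probe sets. Differences of such probe sets had a pooled SD of 1.17 where the mean level was under 5.06, of 0.27 between 5.06 and 7.68, and of 0.10 at higher levels, so that a difference of a given size was far less repeatable at low levels. *Igf1* itself was at 11.42 on the plus array and 11.03 on the minus array for its probe set of the highest level, a difference of −0.42. Its other probe sets were at 8.11 and 7.37, a difference of −0.75, and at 7.78 and 7.23, a difference of −0.58, so all 3 were lower on the minus array. In the study, *Igf1* expression was absent in the null cochlea by quantitative RT-PCR. On the plus and minus arrays the *Igf1* probe set of the highest level lay at percentiles 98.5 and 97.7. The sources used here do not say which part of the gene the mutant lacks, and the array values were not used to assign a genotype. The excess of the 3′ over the 5′ control probe sets was 0.27 and 0.36 for *Gapdh* and 0.93 and 0.96 for *Actb*, on the plus and minus arrays respectively. For the weaker controls it was larger on the minus array, at 2.27 and 5.29 for *Tfrc* and 2.77 and 3.89 for *Pcx*. The 5′ probe set of *Tfrc* was listed at 0 on the minus array. The mean of the 18S rRNA controls was 6.57 and 7.37. Whether these controls bear on any result was not tested. All 16 markers of cochlea and otic capsule were listed above 0 on both arrays, *Otos* at the lowest levels, 4.21 and 4.16. Their summed level, taken on the linear scale and given as log2, was 15.26 on the plus array and 15.22 on the minus array. The cartilage genes *Col2a1* and *Col9a1*, of the highest levels, weigh most in this sum, and 11 of the 16 markers were lower on the minus array.

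The 10 genes fell into 6 with a mean level over 7.10, the median of all genes, and 4 under it. All 6 of the higher level, *Fos*, *Egr1*, *Nr4a1*, *Ier2*, *Dusp1* and *Jun*, were lower on the minus array. Of the 4 of low level, *Fosb* and *Junb* were lower and *Egr3* and *Atf3* higher there. The median difference was −0.56 over the 10 genes and −0.71 over the 6, beside 0.0028 over all genes and −0.0034 over all 6196 genes above the median level. Of the 10 genes, 3 were below −1, a limit that 4.07% of all genes passed, and 6 were below −0.5, which 8.6% of all genes passed. Among genes above the median level, 2 of the 6 were below −1 and 4 of the 6 were below −0.5, where the shares over all such genes were 0.0646% and 0.646%. Since the genes were selected on this contrast, these shares stand beside the counts without further reading. In tissue RNA of this kind, fewer cells that express a gene and less RNA in each cell cannot be told apart.

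**Figure D1:**
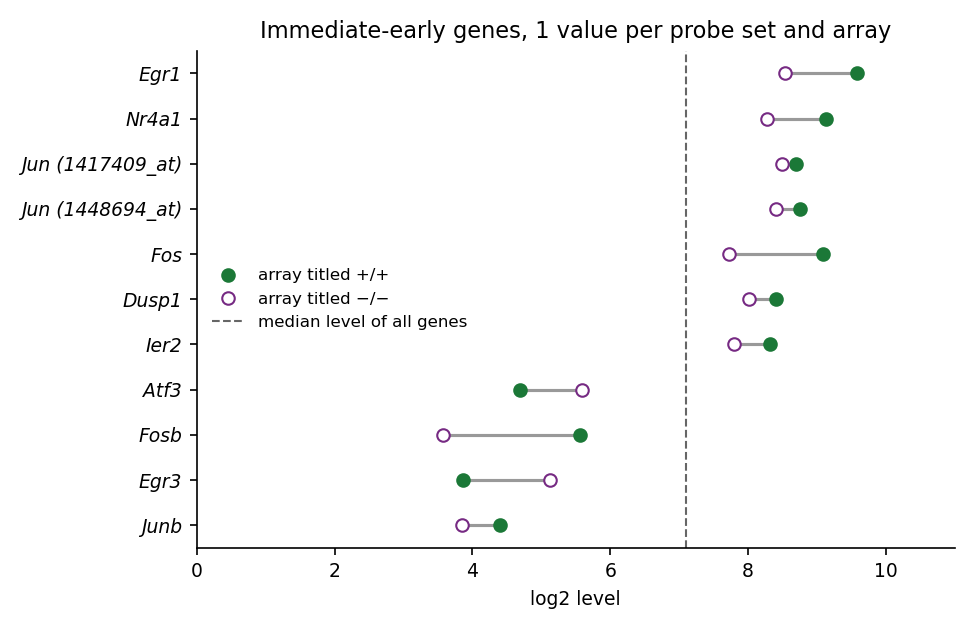
Log2 level of each of the 11 probe sets on the array titled +/+ (green, filled) and on that titled −/− (purple, open) with a grey line between them, 1 value per array and no error. The dashed line marks the median level of all genes, 7.10. The 7 probe sets to the right of the line all have the purple point on the left of the green one, *Fos* with the widest gap, while *Egr3* and *Atf3* at low level have the opposite order.

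*Fos*, the partner of JUN in AP-1, gave the largest difference among the 6 genes of higher level. It was at 9.09 on the plus array and at 7.73 on the minus array, a difference of −1.38, which is a ratio of 2.61 between the first and the second array. Its place among all probe sets shifted from percentile 86.9 on the plus array to percentile 67.3 on the minus array. Of the 1000 probe sets closest in mean level, 0 had a difference as negative, and the central 90% of them lay between −0.22 and 0.28. Among the 6196 genes above the median level, *Fos* held rank 2 from the most negative difference. *Fos*, *Egr1* and *Nr4a1* were chosen on these same differences. Their neighbour counts and ranks therefore follow from that choice and are descriptions only.

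*Egr1*, a zinc finger factor that follows ERK activity, was at 9.58 on the plus array and 8.53 on the minus array, a difference of −1.07 or a ratio of 2.10. Of its 1000 neighbours in level 1 had a difference as negative, and it held rank 3 in the same order. *Nr4a1*, the nuclear receptor, was at 9.13 and 8.28, a difference of −0.87 or a ratio of 1.83. None of its 1000 neighbours in level reached this difference (0 of 1000), and its rank was 7. The 5 genes outside the 10 with the most negative differences above the median level were *Sftpc*, *Ttr*, *Smpdl3a*, *Rarb* and *Gjb2*, which held ranks 1, 4, 5, 6 and 8 in the same order. *Sftpc* differed by −3.49, far more than *Fos*, *Smpdl3a* by −0.95, *Rarb* by −0.90 and *Gjb2* by −0.80, while *Ttr* was at 12.32 and 11.34. *Sftpc* encodes a lung surfactant protein and *Gjb2* the cochlear gap junction protein connexin 26.

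The differences of *Ier2*, *Dusp1* and *Jun* were in the same direction and smaller. *Ier2* was at 8.32 on the plus array and 7.80 on the minus array, a difference of −0.54, again reached by 0 of its 1000 neighbours in level. *Dusp1*, the MAP kinase phosphatase, was at 8.40 and 8.02, a difference of −0.40 that 12 of 1000 neighbours reached. The ratio between the arrays was thus 1.46 for *Ier2* and 1.32 for *Dusp1*, against 2.61 for *Fos*. *Jun*, which pairs with FOS, was the only one of the 10 genes with 2 probe sets. One was at 8.69 and 8.49, a difference of −0.22 that 62 of 1000 neighbours reached, and the other at 8.75 and 8.40, a difference of −0.37 that 9 of 1000 reached. Both probe sets gave the same direction and were apart by 0.15, against an SD of 0.10 between probe sets of one gene at such levels. The difference of *Jun* was thus 2.20 or 3.67 times that SD, depending on the probe set. This SD is a spread between probe sets on the same 2 arrays and not between samples. Differences of all probe sets at such levels had an SD of 0.19. *Fos*, *Egr1* and *Nr4a1* had no further probe set and were chosen on their differences, so no such multiple is given for them.

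**Figure D2:**
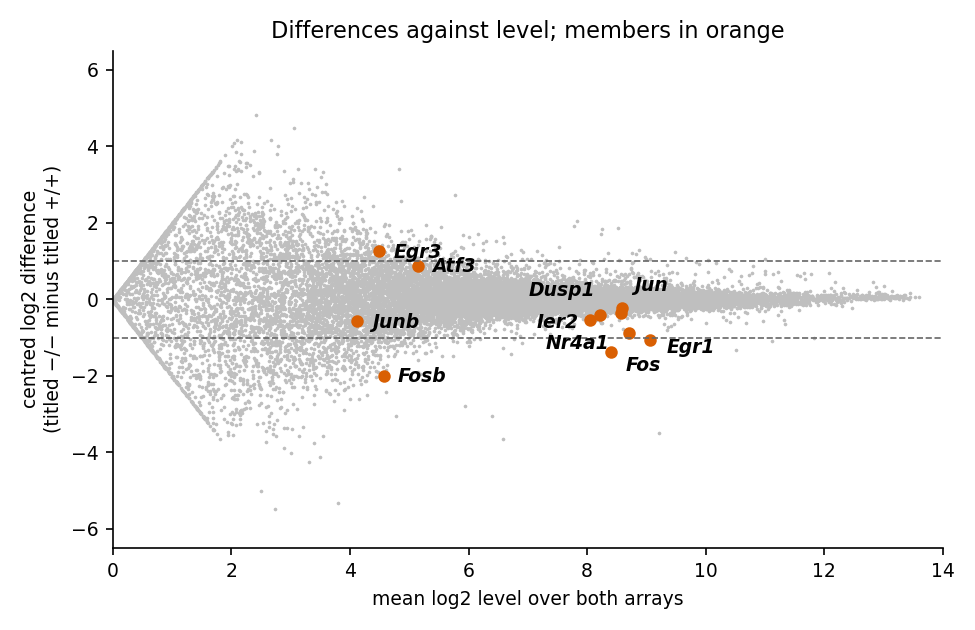
Centred log2 difference (titled −/− minus titled +/+) plotted by mean log2 level, with 1 grey point per probe set and the 11 probe sets of the immediate-early genes in orange. The dashed lines mark 1 and −1. *Fos*, *Egr1*, *Nr4a1* and *Ier2* lie below the grey band at levels where it is narrow, while *Junb*, *Egr3* and *Atf3* lie within its wide part and *Fosb*, at −2.00, at its lower edge.

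Promoter sequences of 7 of the 10 genes were held in the RefSeq set of GRCm38.p6, and the 250 bases before the annotated start were searched for motifs through which this class of genes is known to be regulated. *Egr1*, *Egr3* and *Ier2* were not among them. The sequences of *Fos*, *Nr4a1* and *Dusp1* are shown because these genes were lower on the minus array at levels where probe sets repeat well, *Fosb* because its difference was the largest of all 10 genes, and *Atf3* because its difference had the opposite sign. They run 5′ to 3′ on the strand of the gene and end at the base before the start. Capitals mark the matches described after them. The windows are chr12:85473640-85473889 (plus strand) for *Fos*, chr15:101266596-101266845 (plus strand) for *Nr4a1*, chr17:26508473-26508722 (minus strand) for *Dusp1*, chr7:19310046-19310295 (minus strand) for *Fosb* and chr1:191183334-191183583 (minus strand) for *Atf3*. The start used for *Nr4a1* lay 12944 bases inside the annotated gene and that for *Fosb* 73 bases inside, and the other 3 windows lie directly before the gene.
Fos: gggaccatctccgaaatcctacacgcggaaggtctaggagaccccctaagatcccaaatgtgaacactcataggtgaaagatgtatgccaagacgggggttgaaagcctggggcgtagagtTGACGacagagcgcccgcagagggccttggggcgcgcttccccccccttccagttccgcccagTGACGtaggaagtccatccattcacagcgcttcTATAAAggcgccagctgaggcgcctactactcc
Nr4a1: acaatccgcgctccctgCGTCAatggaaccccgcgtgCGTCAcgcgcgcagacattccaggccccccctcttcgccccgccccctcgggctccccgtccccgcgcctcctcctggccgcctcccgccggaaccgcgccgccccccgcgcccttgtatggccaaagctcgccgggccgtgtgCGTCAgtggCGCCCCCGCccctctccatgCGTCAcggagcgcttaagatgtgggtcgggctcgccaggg
Dusp1: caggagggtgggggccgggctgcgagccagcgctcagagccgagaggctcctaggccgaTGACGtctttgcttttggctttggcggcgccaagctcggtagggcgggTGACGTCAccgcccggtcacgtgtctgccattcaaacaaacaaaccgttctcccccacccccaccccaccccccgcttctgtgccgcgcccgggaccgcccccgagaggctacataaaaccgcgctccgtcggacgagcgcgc
Fosb: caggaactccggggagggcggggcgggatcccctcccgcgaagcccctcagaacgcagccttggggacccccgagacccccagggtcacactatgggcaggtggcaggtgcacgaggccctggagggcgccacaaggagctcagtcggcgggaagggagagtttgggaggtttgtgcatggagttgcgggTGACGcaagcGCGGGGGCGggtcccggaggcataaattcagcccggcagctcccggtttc
Atf3: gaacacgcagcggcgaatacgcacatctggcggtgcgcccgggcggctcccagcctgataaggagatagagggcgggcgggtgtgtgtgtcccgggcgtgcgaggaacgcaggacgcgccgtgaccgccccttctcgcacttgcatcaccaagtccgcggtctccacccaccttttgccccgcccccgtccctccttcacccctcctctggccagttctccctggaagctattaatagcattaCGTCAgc

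The short element of the cyclic AMP response, TGACG on either strand, was present in 6 of the 7 windows, *Jun* being the one without, and in 17.8% of 32851 promoter windows of the same length. *Nr4a1* held 4 of them, all on the opposite strand, at −233, −213, −69 and −40, counted as the position of the first base relative to the start. *Fos* held 2, at −129 and −66, and *Dusp1* held 3, of which 2 overlap as the full palindrome TGACGTCA at −143 to −136. This full element was found in 1 of the 7 windows and in 1.55% of all windows. *Fosb*, *Junb* and *Atf3* held 1 short element each, at −60, −106 and −7, that of *Atf3* on the opposite strand. The binding site of EGR proteins, GCGNGGGCG on either strand, was found before *Fosb* at −50 and before *Nr4a1* at −60, and in 4.70% of all windows. A TATAAA box was found before *Fos* alone, at −33, and in 12.4% of all windows. The CArG box, the core of the serum response element, had 0 matches in the 7 windows and was held by 1.47% of all, and the AP-1 site TGANTCA had 0 and was held by 6.75%. Sites further from the start were not searched. The short element thus occurred before *Atf3*, which was higher on the minus array, as well as before the genes that were lower, and a match is a description of the sequence only.

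**Figure D3:**
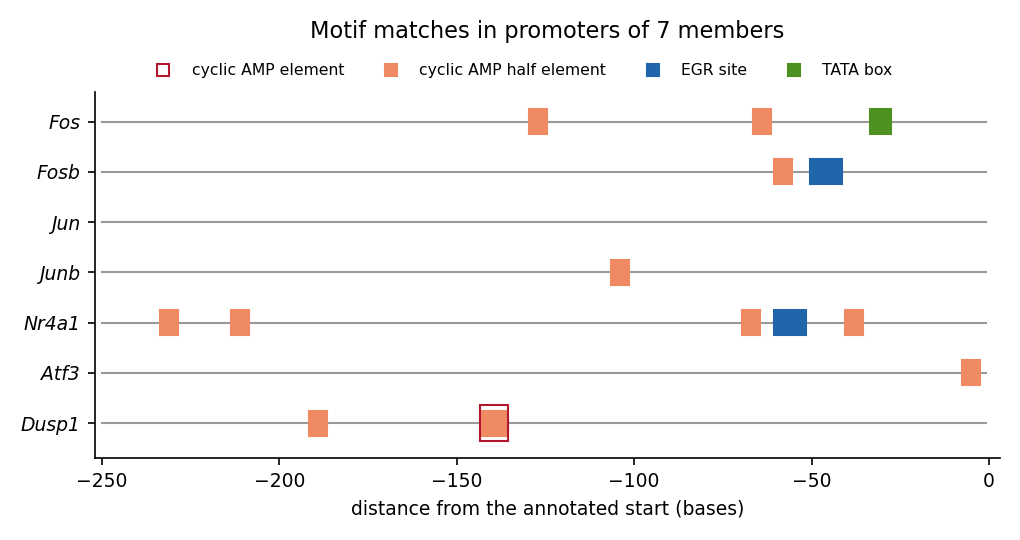
Matches of 4 motifs (coloured boxes, to scale) along the 250 bases before the annotated start of 7 immediate-early genes, with the distance from the start in bases. *Nr4a1* carries 4 short elements of the cyclic AMP response and an EGR site, *Fos* carries 2 short elements and a TATA box, and the window of *Jun* carries no match.

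The 4 genes of low level gave differences of both signs. *Fosb*, a close relative of *Fos*, was at 5.55 on the plus array and 3.58 on the minus array, a difference of −2.00. This was the largest of the 10 in size and had the direction of *Fos*, and 3 of its 1000 neighbours in level had a difference as negative. It was however 1.70 times the SD of 1.17 between probe sets of one gene at such levels, and with one probe set it was not repeated. *Junb* was at 4.40 and 3.84, a difference of −0.58 that 242 of 1000 neighbours reached. A difference of this size was thus usual at the level of *Junb*, where the central 90% of neighbours lay between −1.49 and 1.45.

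*Egr3*, a relative of *Egr1*, was higher on the minus array, at 5.13, than on the plus array, at 3.86, a difference of 1.25. It was the only one of the 10 genes above 1, a limit passed by 5.54% of all genes, and 46 of its 1000 neighbours reached the difference. *Atf3*, a stress-induced member of the ATF family that binds with JUN, was at 4.69 on the plus array and 5.59 on the minus array. Its difference of 0.88 was reached by 58 of 1000 neighbours. It was 3.24 times the SD of 0.27 between probe sets of one gene at levels between 5.06 and 7.68. The mean level of *Atf3*, 5.14, was however close to 5.06, under which that SD was 1.17, so the multiple depends on this limit. The difference of *Egr3*, at a mean level under the limit, was 1.07 times the SD of 1.17. Both values of *Egr3* and of *Atf3* lay below the median of all probe sets on each array, at percentiles from 23.4 to 37.7. *Egr1* and *Egr3* thus had opposite signs, and so had *Fos* and *Atf3*, with one gene of each pair below the median level.

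Of 17 further genes of the AP-1, ATF, EGR, NR4A, IER and MAP kinase phosphatase families, 15 were measured, 8 lower and 7 higher on the minus array, with a median of −0.10. *Jund*, the JUN family member that is expressed steadily in many tissues, was at 9.97 on the plus array and 9.90 on the minus array, a difference of −0.10. *Atf4* differed by 0.12, *Dusp6* by 0.22, *Ier3* by −0.10 and *Ier5* by 0.22, and these 5 were the relatives above the median level of all genes. Weaker probe sets of *Ier5* differed by −0.36 and −0.64, and those of *Atf4* by 0.11 and −2.51. *Dusp6*, a phosphatase that acts on ERK, had the opposite sign to *Dusp1*. The difference of *Dusp6* was reached by 90 of 1000 neighbours, the central 90% of which lay between −0.26 and 0.28. The other 10 relatives were below the median level. Among them *Fosl2*, of the FOS family, was at 5.62 on the plus array and 4.69 on the minus array, a difference of −0.95 in the direction of *Fos* that 31 of 1000 neighbours reached. *Dusp2* was below −1, at −2.20, and *Egr4*, *Maff* and *Nr4a3* were above 1, at 1.49, 1.24 and 2.31. The differences of these genes were reached by 15, 237, 35 and 107 of 1000 neighbours, in that order. Over all genes, 4.07% were below −1 and 5.54% above 1. The probe sets of *Egr2*, which encodes a factor of Schwann cell myelination also known as Krox20, both pointed the way of *Egr1*, at −0.22 and −1.93, while those of *Nr4a2* differed by −0.24 and 0.13.

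Other genes of the immediate-early response differed in both directions. Of 26 such genes 25 were measured, 11 lower and 14 higher on the minus array, with a median of 0.058. None passed 1 in either direction by the probe set that stood for it, while a weaker probe set of *Ptgs2* was at 2.47. Among the 15 above the median level, 9 were lower and 6 higher, with a median of −0.055. The 4 of the highest level were *Ccn2*, a matrix protein gene that responds to mechanical load, at 0.12, the small GTPase gene *Rhob* at 0.11, and the Krüppel-like factor genes *Klf4* at −0.43 and *Klf2* at −0.17. *Klf4* was at 9.80 on the plus array and 9.39 on the minus array, and its other probe set differed by −0.35.

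*Btg2*, an antiproliferative gene, was the only one of these 25 genes below −0.5. It was at 8.54 on the plus array and 7.95 on the minus array, a difference of −0.61 that 1 of 1000 neighbours reached, and its other probe set differed by −0.60. *Tiparp*, a gene of ADP-ribosylation, differed by −0.35, −0.31 and −0.40 over 3 probe sets, the kinase gene *Sgk1* by −0.41, and *Ccn1*, a secreted matrix protein gene, by −0.30 and −0.31 over 2. *Plk2* differed by 0.18 and *Per1* by 0.063. The differences of *Socs3*, a feedback inhibitor of cytokine signalling, were between −0.11 and −0.055 over 3 probe sets, and those of *Klf6* between −0.029 and 0.092 over 3. These 8 genes were named after their values were seen.

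The factors and kinases that act on immediate-early genes were measured for 13 of 18. By the probe set that stood for each gene, 6 were lower and 7 higher on the minus array, with a median of 0.020 and none past 1. Of the 13 genes, 9 were above the median level and lay between −0.054 and 0.36. Weaker probe sets at low levels passed 1 in size, of *Crem* at 2.22, *Creb1* at 1.59, *Elk4* at 1.51, *Rps6ka3* at 1.30 and *Mapk14* at −1.68. *Rps6ka3*, a kinase that ERK activates, was at 9.28 on the plus array and 9.33 on the minus array, and the p38 kinase gene *Mapk14* was at 8.82 and 8.91. All weaker probe sets of *Mapk14* were lower on the minus array. The ternary complex factor gene *Elk4* and the ERK kinase gene *Map2k1* differed by 0.020 and 0.036. *Srf*, which encodes the factor that binds the CArG box, differed by 0.36 on its stronger probe set and by −0.044 on the other. *Creb1*, whose product binds the cyclic AMP element, was read at levels below 6 by 4 probe sets that ranged from −0.40 to 1.59. The mRNA levels say nothing about phosphorylation, through which these factors and kinases are controlled.

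Genes of 3 further responses to stress or handling differed in both directions. The heat shock and unfolded protein genes, all 10 measured, were 5 lower and 5 higher on the minus array, with a median of 0.0016. *Hspa8* and *Hsp90aa1* differed by −0.015 and 0.056, *Hspa5* by −0.099, and *Hspb1* by 0.58 at levels of 10.01 and 10.60. The weaker probe sets of *Hspa8* differed by 0.0052, 0.035 and 1.29, the last at levels of 5.58 and 6.90. The inducible genes *Hspa1a* and *Hspa1b*, which respond quickly to heat and injury, differed by −0.10 and 0.19 below the median level. Of 12 hypoxia genes, 9 were lower and 3 higher, with a median of −0.095. All lay between −0.42 and 0.24 by the probe set that stood for each gene. Weaker probe sets outside this range included those of *Ndrg1* at 1.01 and 0.36 and of *Vegfa* at −0.66. *Ldha*, *Aldoa*, *Pgk1* and *Bnip3*, those of the highest level, differed by −0.051, 0.17, −0.0090 and −0.14. Of 7 glucocorticoid response genes, 2 were lower and 5 higher, with a median of 0.23, among them *Cdkn1a* at 0.31, *Fkbp5* at 0.23, *Mt1* at 0.080 and *Tsc22d3* at −0.011. These lists describe responses that can follow handling, and whether dissection, handling or genotype set the levels of *Fos*, *Egr1* and *Nr4a1* was not tested.

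**Figure D4:**
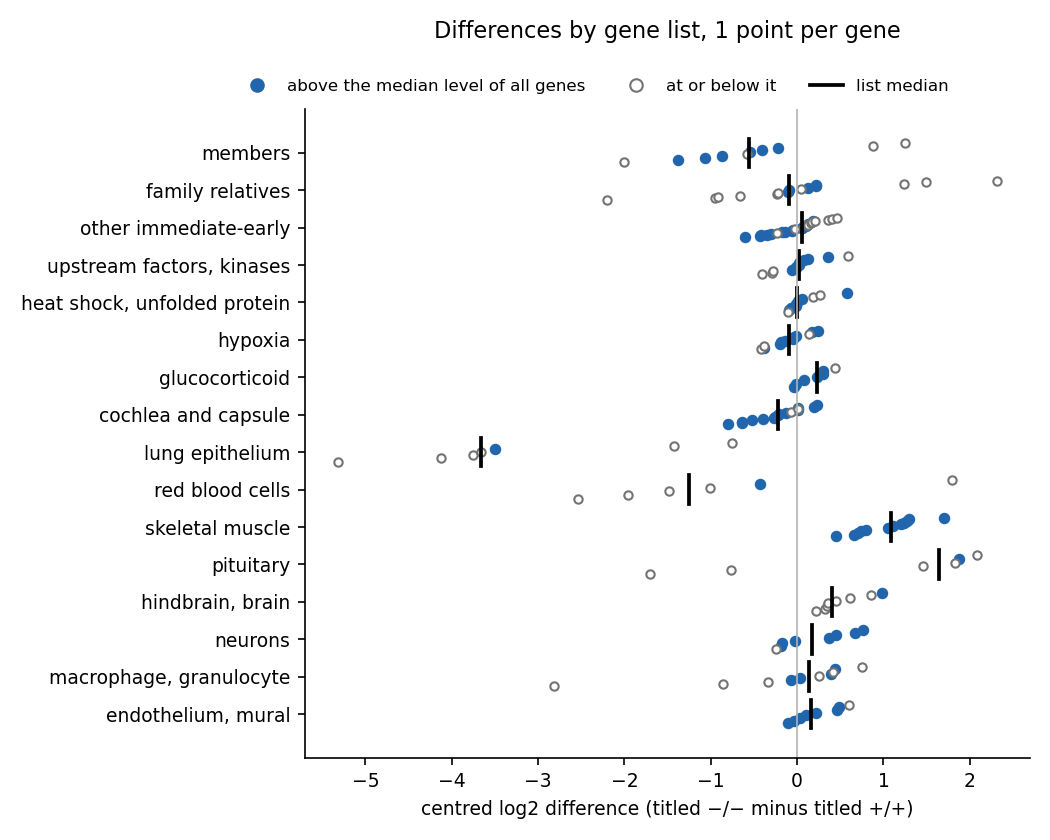
Centred log2 difference (titled −/− minus titled +/+) of each gene by list, with 1 point per gene, filled where its mean level is above the median of all genes, and a black bar at the list median. The 6 filled points of the immediate-early genes, in the top row, all lie left of 0, whereas the medians of the upstream factors and the heat shock genes are 0.020 and 0.0016, lung genes lie far to the left and skeletal muscle genes to the right.

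Markers of tissues other than the cochlea moved with the arrays as well. All 7 genes of lung epithelium were lower on the minus array, the direction of *Fos*, and their summed level was 11.41 on the plus array and 8.34 on the minus array. *Sftpc*, *Scgb3a2*, *Sftpb* and *Sftpd* among them differed by −3.49, −3.66, −1.42 and −0.76. Of 6 genes of red blood cells, 5 were lower there, with summed levels of 8.48 and 7.92, and *Epb42* was listed at 0 on the plus array. In the opposite direction, all 12 skeletal muscle genes had higher levels on the minus array, with a summed level that was higher by 0.75. All 8 of hindbrain and brain were higher too, with 9.73 and 10.62, where *En1* was listed at 0 on the plus array. Only 1 of these 8, *Zic1* at 9.33 and 10.33, was above the median level. The differences of the others were reached by 27 to 336 of 1000 neighbours. Of 6 pituitary genes 4 were higher, with 8.15 and 9.84, where *Cga* was listed at 0 on the plus array. Only 1 of these 6, *Gh* at 7.57 and 9.47, was above the median level. The differences of the others were reached by 2 to 202 of 1000 neighbours.

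The summed levels of cell types that lie within the cochlea differed by less than those of lung, muscle, hindbrain or pituitary, but some single genes among them differed by more than 0.5. The neuron markers had summed levels of 12.47 and 12.66, with 4 of 8 lower on the minus array and *Elavl3* and *Tubb3* higher there by 0.76 and 0.67. The macrophage and granulocyte markers were at 10.82 and 10.90, with 4 of 10 lower, and those of endothelium and mural cells at 12.03 and 12.25, with 2 of 8 lower. Of the 16 cochlear markers 11 were lower there, with a median of −0.22. The 4 of the highest level were *Col2a1* and *Col9a1* of cartilage, at 0.015 and 0.0048, and the otic genes *Otor* and *Epyc*, at −0.22 and −0.13. Of the 16 cochlear markers 4 were below −0.5, all in the direction of *Fos* and at levels over 7.10. These were *Gjb2* at −0.80, the otic mesenchyme factor gene *Pou3f4* at −0.64, and *Tectb* and *Tecta* of the tectorial membrane at −0.64 and −0.52. *Coch*, the gene of cochlin, differed by −0.40. The differences of the 4 markers thus lay between those of *Nr4a1* and *Dusp1*. The summed level of the 10 immediate-early genes was 11.57 on the plus array and 10.85 on the minus array. Marker levels of other tissues thus differed between the arrays, and the part of any of these tissues in the differences of *Fos*, *Egr1*, *Nr4a1* or the other immediate-early genes was not tested. With one array for each title, tissue content, handling and genotype cannot be told apart.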

How the data were processed

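Total RNA of cochleae was labelled by the authors as biotinylated cRNA and hybridised to MOE430A arrays, of which 2 columns of values were used here. The values deposited by the authors are log2 levels of probe sets, made with software that is not given for these columns in the sources used here. Their methods name MAS5.0, RMA and multi-mgMOS of the PUMA package, without versions. The base was read from the values, whose highest, 13.64, lies between the natural log, 11.09, and the log2, 16, of the largest 16-bit intensity. Scaling between the arrays and whether a column is 1 array or a summary are not stated, and the lowest values are listed at exactly 0.

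Of 22690 probe sets, 64 controls were left out. In the platform annotation 20380 of the others have 1 gene symbol, 691 several and 1555 none, and 20351 matched the RefSeq gene table of GRCm38.p6 by gene identifier. Differences were centred on their median. The probe set with the highest mean level stood for its gene. Neighbours in level are the 1000 probe sets closest in mean level. Summed levels were added on the linear scale.

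No test was made with 1 array per title. The genes, the 15 other gene lists, the motifs and the limits of 1 and 0.5 were chosen with earlier results of these data known. Named are all 10 genes, by rule the 4 of the highest mean level of each other list and its genes past 1 in size above the median level, the 5 other genes of the most negative difference above the median level, and further genes chosen after their values were seen. Of the lists of other tissues and cells, most are given by counts and summed levels in place of the genes the rule names. Symbols in the lists were matched through older symbols where needed, and *Cyr61* and *Ctgf* are given as *Ccn1* and *Ccn2*. The alternatives were no centring, quantile normalization, loess with a span of 0.3, values raised to the 25th percentile, the mean over probe sets, exclusion of probe sets with names in _x_at or _s_at, and only genes above the median level. The calculation of differences was run on simulated arrays with shifts of at least 1 log2 unit added at high levels. Smaller shifts, low levels, the neighbours in level, the gene lists and the motif search were not part of that run. Calculations ran in Python 3.11.15 (pandas 2.3.3, numpy 2.4.6, statsmodels 0.14.6, matplotlib 3.10.9).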

Additional observations from a re-analysis of the deposited data

How the results depend on the processing

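The median difference of the 10 genes was −0.56, and −0.71 with only genes above the median level, which leaves 6 of them. Under the other alternatives it lay between −0.58 and −0.48. If the source names hold in place of the titles, every sign turns, and the median becomes 0.56. Each gene kept its sign under every alternative that gave it a value. *Fos* ranged from −1.39 to −1.36, *Egr1* from −1.08 to −1.05, *Nr4a1* from −0.89 to −0.85 and *Jun* from −0.30 to −0.20, while *Fosb* ranged from −2.03 to −1.46 and *Junb* from −0.61 to −0.31, with the smallest sizes when values were raised to the 25th percentile. The median of the family relatives ranged from −0.096 to 0.12 and that of the other immediate-early genes from −0.055 to 0.080, on both sides of 0. That of the upstream factors and kinases ranged from −0.0088 to 0.16, the highest with the mean over probe sets. No paired analysis was possible because there is 1 array per title. *Fosb*, *Junb*, *Egr3* and *Atf3* were read by 1 probe set each, below the median level of all genes, and no measure of signal over background was used.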

Other observations

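Several genes of the immediate-early response were close to the floor of the arrays. *Arc*, a neuronal gene induced by activity, was listed at 0 on both arrays. *Fosl1* was at 1.60 on the plus array and 0.96 on the minus array by one probe set, and was listed at 0 and at 1.72 by the other, so that the probe sets of this AP-1 gene differed in sign. *Ptgs2*, which encodes the inducible cyclooxygenase, was at 3.23 and 3.72 by one probe set, and was listed at 0 and at 2.49 by the other. *Nr4a3* was at 0.20 and 2.54 by one probe set and at 1.26 and 1.16 by the other.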
